A study of Mus musculus with 13 samples.

Results

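The type I interferon response genes described here are 36 genes: the ligand interferon beta (Ifnb1), the transcription factors that relay its signal, and the antiviral effectors that the signal induces. They were taken from a list of gene names, which was chosen with earlier results of these data known. Each was read from its RefSeq transcript with the highest total count. All 36 passed the filter on low counts, among 11942 genes that did so and 24445 gene symbols in all.

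Lipopolysaccharide (LPS), a component of the outer membrane of Gram-negative bacteria, binds Toll-like receptor 4 on macrophages. The receptor then signals through adaptors and the kinase Tbk1 to the transcription factor Irf3, which together with NF-kappa B turns on Ifnb1. Secreted interferon beta binds the receptor made of Ifnar1 and Ifnar2 on the same and neighbouring cells, and the kinases Jak1 and Tyk2 activate a complex holding Stat2 and Irf9 that binds interferon-stimulated response elements (ISREs) in the promoters of interferon-induced genes.

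The study asked how loss of ATP citrate lyase (Acly), the enzyme that makes cytosolic acetyl-CoA from citrate, alters the LPS response of bone marrow-derived macrophages (BMDMs). BMDMs were grown in L929-conditioned medium from the marrow of female C57Bl/6J mice, whose age is not given in the sources used here, and stimulated with 100 ng/mL LPS for 3 h or 24 h before mRNA was sequenced. Control mice carried floxed Acly alleles (Acly fl/fl), and AclyM-KO mice carried them together with Lyz2-Cre, in which the LysM promoter drives the recombinase in macrophages and other myeloid cells. Both genotypes thus carry the floxed alleles, and the labels call them WT and KO. The libraries compared were 3 control and 3 AclyM-KO libraries at each time. Every one of them had received LPS, and unstimulated libraries are not analysed here, so the values compare stimulated cells and give no induction over rest. The labels do not say that replicates came from separate animals, so p-values measure only the spread between these libraries, which may be technical. In bulk samples, fewer cells of a type and less RNA per cell cannot be told apart.

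The 12 libraries held 21274102 to 59577343 counts. A further control library, 24 h replicate 1, held 34467 counts and was left out of the main comparisons. Acly, which checks the labels, fell from 106 ± 1.2 to 41.8 ± 4.25 CPM (counts normalised to a library size scaled by the TMM method; mean ± SD, n = 3) at 3 h, and from 110 ± 2.78 to 29.9 ± 0.758 CPM at 24 h, with no overlap between genotypes (log2 fold changes -1.34 and -1.88, adjusted p = 6.41e-16 and 4.81e-20 by edgeR). All 8 macrophage markers examined passed the filter. Their summed level was 10029.5 to 10165.8 CPM in controls and 7145.8 to 8012.3 CPM in AclyM-KO at 3 h, and 5963.0 to 6257.7 against 4458.9 to 4560.9 CPM at 24 h. The marker with the largest change was Lyz2, whose locus carries the Cre and whose log2 fold change was -0.97 at 3 h and -1.40 at 24 h. Lyz2 alone held 5239.9 ± 24.5 CPM in controls and 2666.9 ± 351 CPM in AclyM-KO at 3 h. At 24 h it held 2437.2 ± 81.2 and 921 ± 53.2 CPM, so the lower sums lay mainly in this gene. Csf1r, Cd68, Itgam and Mrc1 overlapped between genotypes at both times. Mertk was also lower at both times (-0.31 and -0.33), Fcgr1 was lower at 3 h (-0.26) and Adgre1 was higher at 3 h (0.24). The part of these markers in the results was not tested. Markers of other cells were low. The 8 dendritic cell markers summed to at most 3.8 CPM in any library, the 9 neutrophil markers to 15.3 and the 6 fibroblast markers to 1.97. The 8 T, B and NK cell markers summed to at most 0.35 and the 5 erythroid and mast cell markers to 0.288 CPM, and Ly6g was at 0 in every library. At 3 h S100a9 had means of 4.64 CPM in controls and 5.37 CPM in AclyM-KO, and Ngp had 4.87 and 4.37 CPM. These levels exceed the mean of Ifnb1 in 3 h controls (1.99 CPM). Of these 36 markers of other cells 9 had enough counts to be tested, and none of the 9 passed in a genotype comparison. For Ccr7 at 24 h all AclyM-KO libraries lay above all controls (means of 1.78 and 1.09 CPM, adjusted p = 0.0564).

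Before the results, 4 libraries at 3 h need naming. AclyM-KO replicate 2 was the highest of its 3 for 29 of the 36 members (80.6%, against 38.2% of all genes), and control replicate 2 was the lowest of its 3 for 29 of them (80.6%, against 34.6% of all genes). This pair leans toward a higher AclyM-KO value. In the opposite lean, AclyM-KO replicate 3 was the lowest for 22 members (61.1%, against 27.9% of all genes) and control replicate 1 the highest for 22 (61.1%, against 32.4%). Within groups, the members' median coefficient of variation was 3.86% in controls and 6.47% in AclyM-KO at 3 h, and 3.71% and 2.5% at 24 h, below the medians of all genes (7.43%, 9.53%, 6.91% and 6.95%). The members' calls at 3 h are therefore also given without the replicate 2 pair and without the opposite pair. Both were added as alternatives after seeing the data, and either leaves 2 libraries in each 3 h group.

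Promoter sequences were read for motifs that some of the members share. Of the 36 members, 26 had an entry in RefSeq's promoter table (GRCm38.p6, 250 bases before to 50 after the start), and Parp9, Mx2, Rtp4, Dhx58, Mx1, Zbp1, Parp14, Usp18, Ifi204 and Oas2 had none. Motifs were searched by their letters on both strands. The ISRE core GAAANNGAAA was found in 14 of the 26 genes (53.8%), against 3.99% of 27025 genes. The interferon gamma-activated site motif TTCNNNGAA (GAS) was found in 6 genes (23.1%, against 9.55%), and the kappa B motif GGGANNTTCC in 3 (11.5%, against 1.63%). A match is a run of letters and does not show that a factor binds there. The 5 promoters printed are those of the genes the results turn on: the ligand, the 2 genes with the strongest lower values at 3 h, an IFIT gene and the gene with the smallest p-value at 24 h. Each gives the 250 bases before the start on the gene's strand, with motif matches in capitals.
Ifnb1, kappa B match, minus strand, chr4:88522795-88523044: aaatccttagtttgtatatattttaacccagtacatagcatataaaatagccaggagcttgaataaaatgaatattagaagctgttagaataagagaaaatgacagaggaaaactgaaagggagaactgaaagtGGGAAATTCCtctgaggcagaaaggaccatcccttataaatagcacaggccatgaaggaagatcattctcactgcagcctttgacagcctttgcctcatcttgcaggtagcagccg
Isg15, ISRE matches, minus strand, chr4:156200819-156201068: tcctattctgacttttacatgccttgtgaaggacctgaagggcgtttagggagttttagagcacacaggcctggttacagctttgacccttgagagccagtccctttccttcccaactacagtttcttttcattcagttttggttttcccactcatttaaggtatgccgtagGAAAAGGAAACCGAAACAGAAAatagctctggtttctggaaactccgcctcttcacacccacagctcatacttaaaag
Ifi205, ISRE match, minus strand, chr1:174031756-174032005: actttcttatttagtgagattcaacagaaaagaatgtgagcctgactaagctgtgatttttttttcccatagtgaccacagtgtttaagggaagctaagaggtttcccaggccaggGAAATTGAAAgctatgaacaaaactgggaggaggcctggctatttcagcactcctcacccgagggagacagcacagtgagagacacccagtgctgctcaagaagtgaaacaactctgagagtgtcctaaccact
Ifit1, ISRE matches, plus strand, chr19:34640639-34640888: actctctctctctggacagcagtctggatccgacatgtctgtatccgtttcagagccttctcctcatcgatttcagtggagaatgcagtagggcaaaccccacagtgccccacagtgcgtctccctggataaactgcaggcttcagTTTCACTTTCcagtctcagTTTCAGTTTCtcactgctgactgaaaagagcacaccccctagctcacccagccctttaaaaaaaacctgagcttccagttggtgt
Rsad2, ISRE match, minus strand, chr12:26456453-26456702: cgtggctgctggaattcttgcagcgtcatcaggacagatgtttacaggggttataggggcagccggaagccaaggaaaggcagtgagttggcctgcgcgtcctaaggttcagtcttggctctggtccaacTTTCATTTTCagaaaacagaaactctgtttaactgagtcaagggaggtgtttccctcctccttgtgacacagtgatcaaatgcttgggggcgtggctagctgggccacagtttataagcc

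Isg15 held 3 overlapping ISRE matches, the nearest of which begins 66 bases before the start. Ifit1 held a pair of separate matches, 104 and 85 bases before the start, and Rsad2 held 1 at 120 bases, all of them read on the opposite strand. Ifnb1 held no ISRE match under this strict spelling and 1 kappa B match 116 bases before the start. The search finds only these letters in these windows.

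At 3 h the ligand gene and most of the target genes that passed the test differed between genotypes in opposite directions. Ifnb1 was higher in AclyM-KO BMDMs and was the only member past both thresholds used by the study, which ask that the adjusted p-value be below 0.05 and the log2 fold change exceed 0.75 up or down. Most members that passed on the adjusted p-value alone were lower: 10 were lower (Stat2, Ifit1, Ifit2, Rtp4, Isg15, Trim30a, Ifi204, Ifi205, Parp9 and Parp14) and 3 were higher (Ifnb1, Irf7 and Isg20). Their changes, other than that of Ifnb1, were all under 0.75 on the log2 scale.

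Across all 11942 genes tested at 3 h, 1.41% passed both thresholds as higher and 0.603% as lower. On the adjusted p-value alone, 8.52% were higher and 6.92% lower, so that 10 of 36 members lower is above the background share and 3 of 36 higher is near it. No member was lower past both thresholds, by edgeR or by DESeq2. At an unadjusted p-value under 0.05 by edgeR 14 members were lower, none of them beyond 0.75, and 8 were higher, 1 of them beyond it. The share of all genes at an unadjusted p-value was not counted at either time. The libraries of the genotypes did not overlap for 17 members: AclyM-KO lay above all controls for 5 (15.4% of all genes) and below them for 12 (14.7% of all genes). The median log2 fold change of the members was -0.075, against -0.005 for all genes.

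The count of lower members at 3 h depended on single libraries, and the count over all genes moved as well. The members' count was 4 without AclyM-KO replicate 3, 5 without control replicate 1 and 5 without control replicate 3, and it was 15 without AclyM-KO replicate 2. Of all genes, 826 of 11942 were lower in the main fit. In the same order, the fits without a library gave 529 of 12105, 524 of 12103, 487 of 12108 and 677 of 12081. Without the replicate 2 pair 15 members were lower, 2 were higher and the median was -0.132. Of 12035 genes in that fit, 565 were lower and 754 higher. Without the opposite pair (AclyM-KO replicate 3 and control replicate 1) 3 members were lower (Ifit1, Isg15 and Ifi205), 5 were higher and the median was -0.012. Of 12073 genes in that fit, 346 were lower and 586 higher. The count of higher members was 7 without AclyM-KO replicate 1 and 5 without AclyM-KO replicate 3. Higher genes in all were 1138 of 12107 and 786 of 12105 in these fits, against 1018 of 11942 in the main fit. With the shallow library included, 4 members were lower and 2 higher, and of all 11942 genes 710 were lower and 888 higher.

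Of the 10 lower members, all passed without the replicate 2 pair, with log2 fold changes of -0.17 for Stat2 (adjusted p = 0.0334), -0.26 for Ifit1 (2.48e-04), -0.26 for Ifit2 (2.55e-04), -0.25 for Rtp4 (0.00266), -0.42 for Isg15 (4.08e-07), -0.27 for Trim30a (3.66e-04), -0.23 for Ifi204 (0.0037), -0.55 for Ifi205 (4.44e-10), -0.18 for Parp9 (0.0256) and -0.17 for Parp14 (0.0497). Without the opposite pair 7 of them lost the call, with log2 fold changes of -0.09 for Stat2 (adjusted p = 0.44), -0.11 for Ifit2 (0.286), -0.17 for Rtp4 (0.165), -0.17 for Trim30a (0.0902), -0.11 for Ifi204 (0.357), -0.11 for Parp9 (0.289) and -0.16 for Parp14 (0.176). The 3 that kept it were Ifit1 (-0.22, adjusted p = 0.024), Isg15 (-0.41, adjusted p = 1.15e-04) and Ifi205 (-0.51, adjusted p = 1.28e-05).

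**Figure D1:**
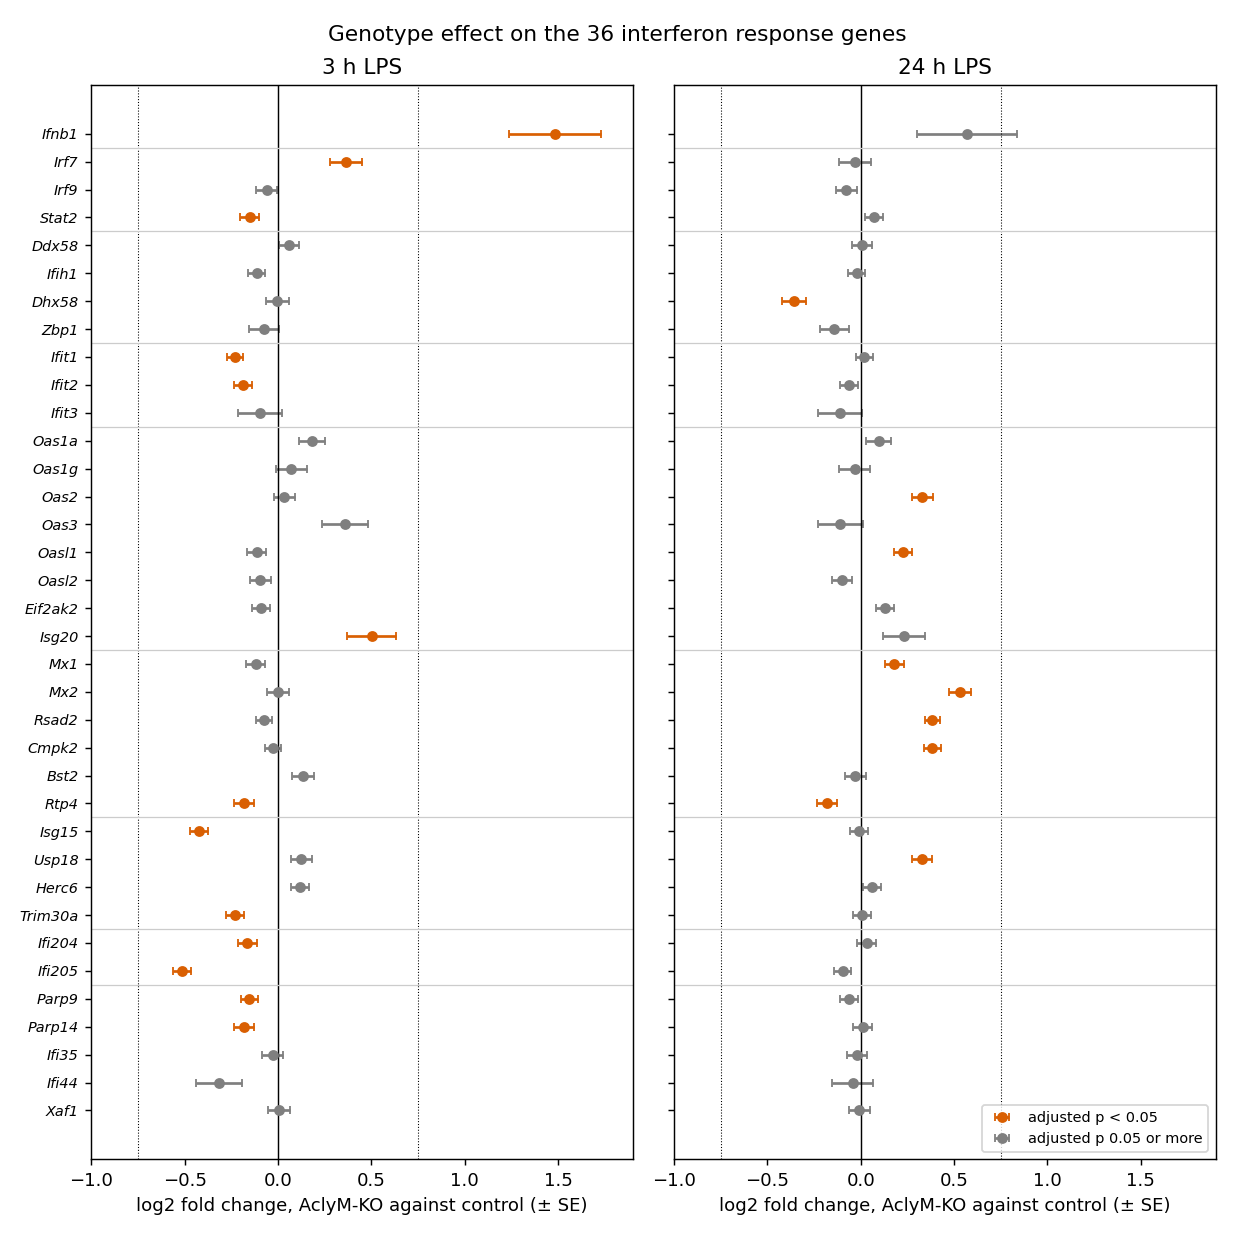
Log2 fold change of AclyM-KO against control BMDMs for the 36 members, in rows grouped by role, at 3 h (left) and 24 h LPS (right). Points are edgeR estimates, bars are ± SE, orange marks an adjusted p-value under 0.05 and dotted lines mark 0.75 in either direction. Ifnb1 at 3 h is the only orange point beyond a dotted line. At 3 h 10 orange points lie left of 0, and at 24 h 7 of 9 lie right of it.

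At 24 h the calls fell on other genes. On the adjusted p-value alone 7 members were higher in AclyM-KO (Oas2, Oasl1, Mx1, Mx2, Rsad2, Cmpk2 and Usp18) and 2 were lower (Dhx58 and Rtp4), against 8.31% of all genes higher and 5.59% lower. None passed both thresholds by edgeR or DESeq2, where 0.896% of all genes were higher and 0.486% lower. At an unadjusted p-value under 0.05, edgeR gave 9 members higher and 3 lower. AclyM-KO libraries lay above all controls for 12 members (18.2% of all genes) and below them for 7 (14.9%). The median log2 fold change was -0.001, against 0.005 for all genes. The lower count was 1 without AclyM-KO replicate 2 or 3, and 1 without control replicate 3 or 4. In the same order, lower genes in all were 497 of 12084, 450 of 12089, 526 of 12101 and 461 of 12101, against 667 of 11942 in the main fit.

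Ifnb1, which encodes the secreted ligand that starts the response, was the member that moved most at 3 h. The controls held 2.18, 1.73 and 2.04 CPM of Ifnb1 and the AclyM-KO libraries 3.94, 8.18 and 4.38 CPM. Every AclyM-KO library lay above every control, and replicate 2 lay well above the other 2. The log2 fold change was 1.48 ± 0.24 (SE), a 2.8-fold higher level, with an adjusted p-value of 1.86e-04. Without AclyM-KO replicate 2 it was 1.07, without the replicate 2 pair it was 0.98 (adjusted p = 0.00383), without the opposite pair it was 1.71 (adjusted p = 0.00112), and the call held under every alternative run. Ifnb1 was rare at these times: 1 count stands for 0.0437 to 0.0512 CPM in the 3 h libraries.

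At 24 h the mean of Ifnb1 was below its 3 h mean in both genotypes. By edgeR the fall passed in AclyM-KO (adjusted p = 5.57e-06) and missed the threshold in controls (adjusted p = 0.0753). The controls held 1.35, 1.36 and 1.33 CPM and the AclyM-KO libraries 2.55, 1.61 and 1.8 CPM. The AclyM-KO libraries again lay above all controls, but the log2 fold change of 0.57 ± 0.27 missed the threshold (adjusted p = 0.177). The difference of the 24 h from the 3 h effect was -0.92 ± 0.37 (adjusted p = 0.125), so it cannot be said from these libraries that the effect on Ifnb1 differed between the times.

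Of the 3 transcription factors, Irf7, the factor that amplifies interferon production in a positive loop, was higher at 3 h. Its values were 249, 217 and 228 CPM in controls and 272, 350 and 271 CPM in AclyM-KO. The groups did not overlap, and AclyM-KO replicate 2 stood apart as for Ifnb1. The log2 fold change was 0.36 ± 0.09 (adjusted p = 0.0111), or 0.19 (adjusted p = 0.0228) without the replicate 2 pair and 0.49 (adjusted p = 0.0016) without the opposite pair. The call was lost without control 3 h replicate 3 (adjusted p = 0.0514) and with the shallow library included (adjusted p = 0.243). At 24 h Irf7 was at 1083.5, 1066.7 and 980 CPM in controls and 1022.5, 1032.8 and 1006.4 CPM in AclyM-KO. These ranges overlap, and the log2 fold change was -0.03 ± 0.08 (adjusted p = 0.855).

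Stat2, which joins Irf9 in the complex that binds ISREs, went the other way at 3 h. The controls held 372, 339 and 350 CPM and the AclyM-KO libraries 329, 316 and 310 CPM, without overlap, for a log2 fold change of -0.15 ± 0.05 (adjusted p = 0.0307). At 24 h the controls held 526, 543 and 536 CPM and the AclyM-KO libraries 586, 544 and 553 CPM, all above the controls by a small margin, with a log2 fold change of 0.07 ± 0.05 (adjusted p = 0.384). The change at 3 h is small, and its call was lost without control replicate 1 (adjusted p = 0.22) or 3 (0.0718), without AclyM-KO replicate 2 (0.0521) or 3 (0.135), with the shallow library (0.204) and in a fit of the 3 h groups alone (0.077). Irf9, the DNA-binding part of the complex, had log2 fold changes of -0.06 at 3 h and -0.08 at 24 h, neither of which passed. In the annotation Irf9 overlaps Rnf31 on the same strand, so that reads of the pair may be shared.

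None of the 4 nucleic acid sensors passed at 3 h, and 1 passed at 24 h, as lower, where 5.59% of all genes were lower. Ifih1 (MDA5), a sensor of long double-stranded RNA and the sensor with the highest counts here, held 863, 840 and 875 CPM in controls and 795, 806 and 783 CPM in AclyM-KO at 3 h. The ranges did not overlap, but the log2 fold change of -0.11 ± 0.05 missed the threshold (adjusted p = 0.0903). At 24 h it held 278, 276 and 297 CPM in controls and 280, 282 and 276 CPM in AclyM-KO, which overlapped.

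Dhx58 (LGP2), a helicase that tunes signalling by the other RNA sensors, was that sensor. At 3 h the controls held 109, 101 and 106 CPM and the AclyM-KO libraries 95.1, 119 and 100 CPM, overlapping, with a log2 fold change near 0 (-0.004). After 24 h of LPS the controls held 100, 104 and 101 CPM and the AclyM-KO libraries 78.4, 78.6 and 81.7 CPM, all of them lower. The log2 fold change at 24 h was -0.36 ± 0.06 (adjusted p = 1.34e-04), and this call held under every alternative run. Ddx58 (RIG-I) had log2 fold changes of 0.06 and 0.01, and Zbp1, a sensor of Z-form nucleic acids, of -0.08 and -0.14 at 3 h and 24 h, and none of these passed. An antisense transcript, Dhx58os, lies opposite Dhx58, and the strand setting of the counting is not given in the sources used here.

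The IFIT proteins bind viral RNA and block its translation. At 3 h Ifit1 held 3143.4, 2927 and 3155.1 CPM in controls and 2604.1, 2609.4 and 2647.6 CPM in AclyM-KO. All AclyM-KO libraries lay below all controls, with a log2 fold change of -0.23 ± 0.04 (adjusted p = 4.74e-04), and the call held under every alternative run. By 24 h the values were 1113.3, 1153 and 1206.2 CPM in controls and 1163.8, 1162.2 and 1189.5 CPM in AclyM-KO, which overlapped (log2 fold change 0.02 ± 0.04, adjusted p = 0.845).

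Ifit2 showed a smaller change at 3 h. The controls held 5079.4, 4731.9 and 4866.6 CPM and the AclyM-KO libraries 4232.8, 4601.5 and 4055.9 CPM, without overlap, for a log2 fold change of -0.19 ± 0.05 (adjusted p = 0.00744). The call was lost without AclyM-KO replicate 3 (adjusted p = 0.0792), without control replicate 1 (0.0707) and with the shallow library (0.184). At 24 h the values were 4709.6, 4983.6 and 5247.5 CPM in controls and were 4825.2, 4755.2 and 4714.2 CPM in AclyM-KO, overlapping. Ifit3 had log2 fold changes of -0.10 ± 0.12 and -0.11 ± 0.12 and did not pass at either time, and its reads may be shared with its near copy Ifit3b.

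The next group is the OAS family and other enzymes that act on RNA. Oligoadenylate synthetases make the second messenger that activates RNase L, and the OAS-like proteins are their relatives. Of these 8 members, 1 rose at 3 h (Isg20) and 2 rose at 24 h (Oas2 and Oasl1), and none fell at either time. The shares of all genes were 8.52% higher and 6.92% lower at 3 h, and 8.31% and 5.59% at 24 h, so these small counts are not far from the background.

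Oas2 held 119, 117 and 121 CPM in controls and 124, 131 and 111 CPM in AclyM-KO at 3 h, overlapping. After 24 h of LPS the controls held 90, 95.1 and 92.3 CPM and the AclyM-KO libraries 124, 110 and 115 CPM. The groups were apart at 24 h, with a log2 fold change of 0.33 ± 0.06 (adjusted p = 1.21e-04). Oasl1, which limits translation of Irf7, held 351, 342 and 352 CPM in controls and 302, 343 and 320 CPM in AclyM-KO at 3 h, overlapping at 1 library. At 24 h it held 539, 574 and 539 CPM in controls and 663, 645 and 625 CPM in AclyM-KO, all higher, with a log2 fold change of 0.23 ± 0.05 (adjusted p = 0.00156). Both 24 h calls held under every alternative run. An unnamed gene model lies opposite each of these genes on the other strand.

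Eif2ak2 (PKR), the kinase that stops translation upon sensing double-stranded RNA, held 278, 269 and 292 CPM in controls and 270, 268 and 250 CPM in AclyM-KO at 3 h, overlapping. At 24 h it held 143, 140 and 143 CPM in controls and 159, 156 and 152 CPM in AclyM-KO, without overlap, but neither the effect at 3 h (-0.09) nor that at 24 h (0.13, adjusted p = 0.0745) passed. Isg20, an RNA exonuclease, had a log2 fold change of 0.50 ± 0.13 at 3 h (adjusted p = 0.0247), with 27.8 ± 3.42 CPM in controls and 39.3 ± 8.29 CPM in AclyM-KO. Its call was lost without control replicate 2 (adjusted p = 0.0668) and without the replicate 2 pair (0.21, adjusted p = 0.0503), and kept without the opposite pair (0.63, adjusted p = 0.0249). A fit with the replicate number as a block also ended the Isg20 call (adjusted p = 0.0821). Oas1a, Oas1g, Oas3 and Oasl2 had log2 fold changes between -0.09 and 0.36 at 3 h and between -0.11 and 0.10 at 24 h. None of these passed, and reads of Oas1a and Oas1g may be shared among their close copies.

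The Mx proteins, viperin and other membrane-associated proteins held the members with the smallest p-values at 24 h. Of 6 members, 4 rose at 24 h (Mx1, Mx2, Rsad2 and Cmpk2) and 1 fell (Rtp4), while at 3 h Rtp4 alone passed, as lower. Among all genes 8.31% were higher and 5.59% lower at 24 h, and 6.92% were lower at 3 h. Rsad2 encodes viperin, which makes a chain-terminating nucleotide from CTP, and Cmpk2, its neighbour on the chromosome, encodes a mitochondrial nucleotide kinase.

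At 3 h Rsad2 held 12635.8, 12220.4 and 12335.6 CPM in controls and 12018.9, 11755.8 and 11533.7 CPM in AclyM-KO. The AclyM-KO libraries lay below the controls, but the log2 fold change of -0.07 ± 0.04 missed the threshold (adjusted p = 0.239). By 24 h the controls held 7504.6, 7592.4 and 8053.9 CPM and the AclyM-KO libraries 9876.1, 10217.1 and 10101.3 CPM. The order of the groups was the reverse of that at 3 h, with a log2 fold change of 0.38 ± 0.04, a 1.3-fold higher level (adjusted p = 7.2e-08).

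Cmpk2 was also higher at 24 h, but its groups were not apart at 3 h. At 3 h it held 4567.5, 4305.8 and 4393.5 CPM in controls and 4318.5, 4452.3 and 4243.4 CPM in AclyM-KO, overlapping. At 24 h the controls held 2025.7, 2082.3 and 2181.3 CPM and the AclyM-KO libraries 2818.7, 2672.1 and 2709.5 CPM, all higher, with a log2 fold change of 0.38 ± 0.04 (adjusted p = 2.55e-07).

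Mx2, a dynamin-like GTPase, had the largest change of the members that passed at 24 h. At 3 h the controls held 215, 204 and 204 CPM and the AclyM-KO libraries 213, 218 and 193 CPM, with equal means of 208 CPM. After 24 h of LPS the controls held 74.5, 72.7 and 85.4 CPM and the AclyM-KO libraries 111, 113 and 114 CPM. The log2 fold change at 24 h was 0.53 ± 0.06, or 1.45-fold (adjusted p = 1.26e-07). The calls of Rsad2, Cmpk2 and Mx2 at 24 h held under every alternative run.

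Mx1 changed less. Its values at 3 h were 1304.9, 1297.2 and 1214.9 CPM in controls and 1186.9, 1237.1 and 1088.1 CPM in AclyM-KO, overlapping. At 24 h they were 770, 713 and 775 CPM in controls and 855, 875 and 825 CPM in AclyM-KO, without overlap, with a log2 fold change of 0.18 ± 0.05 (adjusted p = 0.0152). That call was lost without AclyM-KO replicate 1 (adjusted p = 0.0539) or 2 (0.0793), without control replicate 3 (0.115) and with the shallow library (0.0771). The Mx1 and Mx2 transcripts counted carry accessions of non-coding RNAs in RefSeq, and the annotation lists Mx2 as a polymorphic pseudogene, a feature known for the C57BL/6 strain.

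Rtp4, a receptor transporter that restricts flaviviruses, was the member that passed at both times, as lower. Its log2 fold change was -0.18 ± 0.06 at 3 h (adjusted p = 0.0222) and -0.18 ± 0.05 at 24 h (adjusted p = 0.021), and the AclyM-KO libraries lay below all controls at each time. The 3 h call was lost without AclyM-KO replicate 1 (adjusted p = 0.083) or 3 (0.0773), without control replicate 1 (0.0701) or 3 (0.123), with the shallow library (0.0562) and in a fit of 2 groups (0.0526). The 24 h call was lost without AclyM-KO replicate 2 (0.108) or 3 (0.0776), without control replicate 3 (0.0535) or 4 (0.133) and with the shallow library (0.0631). A fit with the replicate number as a block also ended the 24 h call (0.197). Bst2 (tetherin), which holds budding virions at the cell surface, had log2 fold changes of 0.13 and -0.03, and neither passed.

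In the ISG15 system, the transcript of the ubiquitin-like protein itself was lower at 3 h and that of its protease higher at 24 h. Isg15 held 294, 271 and 277 CPM in controls and 209, 201 and 218 CPM in AclyM-KO at 3 h. The groups were well apart, with a log2 fold change of -0.42 ± 0.05, or 0.745 of the control level (adjusted p = 2.94e-07). By 24 h the values were 498, 471 and 494 CPM in controls and 500, 472 and 483 CPM in AclyM-KO, which overlapped (log2 fold change -0.01, adjusted p = 0.94). Usp18, the protease that removes ISG15 and also inhibits the interferon receptor, had 183 ± 7.71 and 199 ± 15.9 CPM at 3 h, and rose at 24 h from 229 ± 9.47 to 287 ± 5.87 CPM, a log2 fold change of 0.33 ± 0.05 (adjusted p = 5.9e-05). The calls on Isg15 at 3 h and Usp18 at 24 h held under every alternative run.

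Trim30a, a ubiquitin ligase of the TRIM family known to restrain TLR signalling, held 552, 524 and 538 CPM in controls and 466, 476 and 434 CPM in AclyM-KO at 3 h, without overlap. The log2 fold change of -0.23 ± 0.05 (adjusted p = 0.00101) held with each single library left out and was lost without AclyM-KO replicate 3 and control replicate 1 together (adjusted p = 0.0902). At 24 h it held 414, 413 and 438 CPM in controls and 423, 426 and 420 CPM in AclyM-KO, which overlapped. Herc6, the mouse ISG15 ligase, had log2 fold changes of 0.12 and 0.06, and neither passed.

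The p200 family are proteins that bind DNA and take part in its sensing. Transcripts of both its members were lower at 3 h, where 6.92% of all genes were lower. Ifi205 held 531, 521 and 562 CPM in controls and 376, 384 and 370 CPM in AclyM-KO, the member with the strongest lower change. Its log2 fold change was -0.51 ± 0.05, or 0.7 of the control level (adjusted p = 5.12e-09), and the call held under every alternative run. At 24 h it held 265, 271 and 281 CPM in controls and 243, 260 and 260 CPM in AclyM-KO, lower without overlap but not past the threshold (log2 fold change -0.10, adjusted p = 0.186).

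Ifi204 held 605, 576 and 599 CPM in controls and 523, 562 and 502 CPM in AclyM-KO at 3 h, without overlap. Its log2 fold change was -0.16 ± 0.05 (adjusted p = 0.0253). The call was lost without AclyM-KO replicate 3 (adjusted p = 0.161), without control replicate 1 (0.115) or 3 (0.0928), with the shallow library (0.09) and in a fit of the 3 h groups alone (0.0581). At 24 h the values were 464, 477 and 520 CPM in controls and 502, 487 and 506 CPM in AclyM-KO, overlapping. Genes of this family are close copies of each other, so reads may be shared among them.

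The last group holds poly-ADP-ribosyltransferases and other induced proteins. Parp14, an ADP-ribosyltransferase, held 2289.1, 2273.7 and 2434.2 CPM in controls and 2234.5, 1974.1 and 1953.3 CPM in AclyM-KO at 3 h. The groups did not overlap, though AclyM-KO replicate 1 came close to the controls, and the log2 fold change was -0.18 ± 0.05 (adjusted p = 0.015). That call was lost without AclyM-KO replicate 3 (adjusted p = 0.112), without control replicate 3 (0.111) and with the shallow library (0.101). At 24 h Parp14 held 1189.2, 1186.7 and 1198.3 CPM in controls and 1273.1, 1205.5 and 1119.3 CPM in AclyM-KO, overlapping.

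Parp9, the partner of the ubiquitin ligase Dtx3l, fell by 0.15 on the log2 scale at 3 h (adjusted p = 0.0238). Its call was lost without AclyM-KO replicate 3 (adjusted p = 0.123), without control replicate 1 (0.101) or 3 (0.0766), with the shallow library (0.0683), in a fit of 2 groups (0.0588) and without the low-count filter (0.0504). Dtx3l lies opposite Parp9 on the other strand. Ifi35, Ifi44 and Xaf1 had log2 fold changes of -0.03, -0.32 and 0.01 at 3 h and -0.02, -0.04 and -0.01 at 24 h, and none passed. Ifi44 at 3 h had the wide SE of 0.12 (adjusted p = 0.12).

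**Figure D2:**
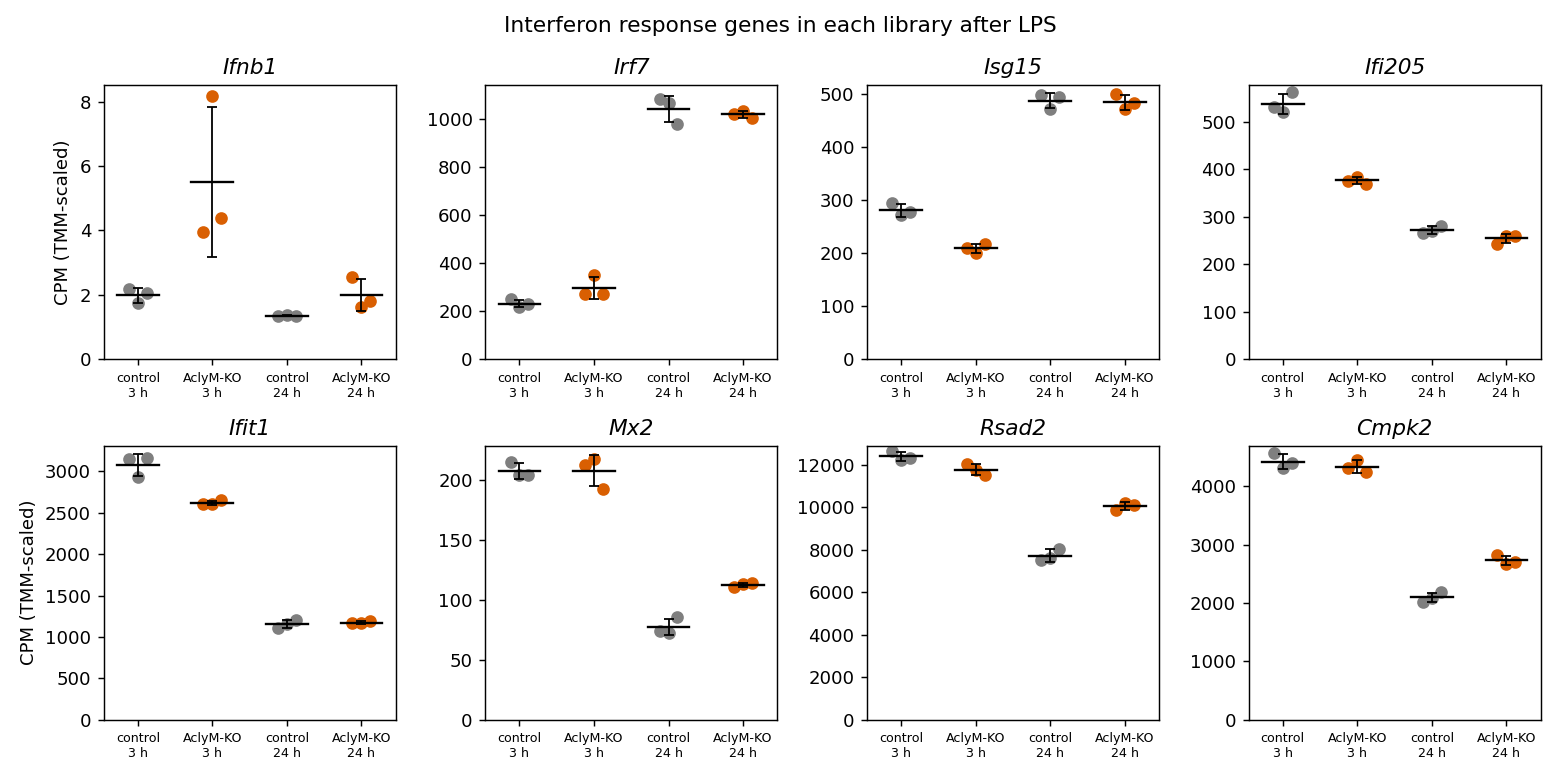
CPM of 8 members in each library, by genotype and hours of LPS. Points are libraries, lines are group means and bars are ± SD (n = 3), and every axis starts at 0. Ifnb1 at 3 h shows AclyM-KO replicate 2 at 8.18 CPM, Isg15 and Ifi205 are apart between genotypes at 3 h, and Mx2, Rsad2 and Cmpk2 are apart at 24 h.

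The difference between the effects at the 2 times was tested directly in the same fit. The genotype effect was higher at 24 h than at 3 h for 12 members and lower for 1, Dhx58, against 4.88% and 4.71% of all genes. The median difference over the 36 members was 0.09 on the log2 scale, against 0.01 for all genes. The differences that held under every alternative run were those of Mx2 (0.53 ± 0.08, adjusted p = 5.5e-05), Rsad2 (0.46 ± 0.06, adjusted p = 2.31e-06), Isg15 (0.42 ± 0.07, adjusted p = 1.33e-04), Ifi205 (0.42 ± 0.07, adjusted p = 1.1e-04), Cmpk2 (0.41 ± 0.06, adjusted p = 3.95e-05), Oasl1 (0.34 ± 0.07, adjusted p = 0.00158) and Dhx58 (-0.35 ± 0.09, adjusted p = 0.00903). These genes reached a difference in unlike ways: Isg15 and Ifi205 were lower at 3 h and near the controls at 24 h, while Mx2, Rsad2 and Cmpk2 were near the controls at 3 h and higher at 24 h.

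The other 6 differences lost their call under some alternatives. Mx1 (0.30 ± 0.07, adjusted p = 0.00646) was lost without the opposite pair, AclyM-KO 3 h replicate 3 and control 3 h replicate 1 (adjusted p = 0.134). Ifit1 (0.25 ± 0.06, adjusted p = 0.0103) was lost without control 3 h replicate 1 (adjusted p = 0.0536) or 3 (0.0515), without the opposite pair (0.0961) and with the shallow library (0.253). Oas2 (0.30 ± 0.08, adjusted p = 0.0175) was lost without AclyM-KO 24 h replicate 1 (0.0701), AclyM-KO 3 h replicate 3 (0.0816), control 24 h replicate 2 (0.0511) or control 3 h replicate 1 (0.0538) or 3 (0.0635), and without the opposite pair (0.169). A fit with the replicate number as a block also ended the Oas2 call (0.0661). Trim30a (0.23 ± 0.07, adjusted p = 0.0223), Stat2 (0.22 ± 0.07, adjusted p = 0.0362) and Eif2ak2 (0.22 ± 0.07, adjusted p = 0.0392) lost their calls in 10, 12 and 15 of the 21 alternatives. Without control 3 h replicate 1 or without control 3 h replicate 3, 7 members were higher in the difference. Higher genes in all were then 356 of 12103 and 346 of 12108, against 583 of 11942 in the main fit. Without the replicate 2 pair 15 members were higher and 3 lower, and without the opposite pair 6 were higher and 2 lower. Of all genes, 506 of 12035 were higher and 573 lower without the replicate 2 pair. Without the opposite pair 225 of 12073 were higher and 350 lower.

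The change from 3 h to 24 h within a genotype shows the course that the members took. In controls 8 members rose past both thresholds (Irf7, Zbp1, Oas3, Isg20, Bst2, Isg15, Herc6 and Ifi44) and 9 fell (Ifih1, Ifit1, Eif2ak2, Mx1, Mx2, Cmpk2, Ifi205, Parp9 and Parp14). Of all genes, 20.9% rose and 19.5% fell. In AclyM-KO 8 rose (Irf7, Stat2, Oas3, Oasl1, Isg20, Bst2, Isg15 and Ifi44) and 7 fell (Ifnb1, Ifih1, Ifit1, Eif2ak2, Mx2, Parp9 and Parp14), where 21.9% of all genes rose and 20% fell. These shares are close to those of all genes in each direction, so the module as listed did not move one way between the times. The median log2 fold change over the members was -0.17 in controls and -0.10 in AclyM-KO, against 0.04 and 0.04 for all genes.

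Some members rose strongly. Ifi44 rose from 55.7 ± 5.51 to 357 ± 14.9 CPM in controls, 6.41-fold, and from 44.6 ± 9.26 to 347 ± 7.84 CPM in AclyM-KO, 7.75-fold. Bst2 rose 4.62-fold in controls and 4.14-fold in AclyM-KO, Irf7 4.51-fold and 3.43-fold, Isg20 3.8-fold and 3.14-fold, and Oas3 3.41-fold and 2.47-fold. Others fell: Ifih1 to 0.33 of its 3 h level in controls and 0.352 in AclyM-KO, Mx2 to 0.375 and 0.541, Ifit1 to 0.376 and 0.447, and Parp9 to 0.471 and 0.502. The genes that differ in size between genotypes here are those of the direct test above, and for Mx2, Rsad2 and Cmpk2 the fall was smaller in AclyM-KO, with Rsad2 at 0.622 of its 3 h level in controls and 0.855 in AclyM-KO. Ifnb1 fell to 0.36 of its 3 h level in AclyM-KO (adjusted p = 5.57e-06), and was at 0.678 in controls (adjusted p = 0.0753).

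**Figure D3:**
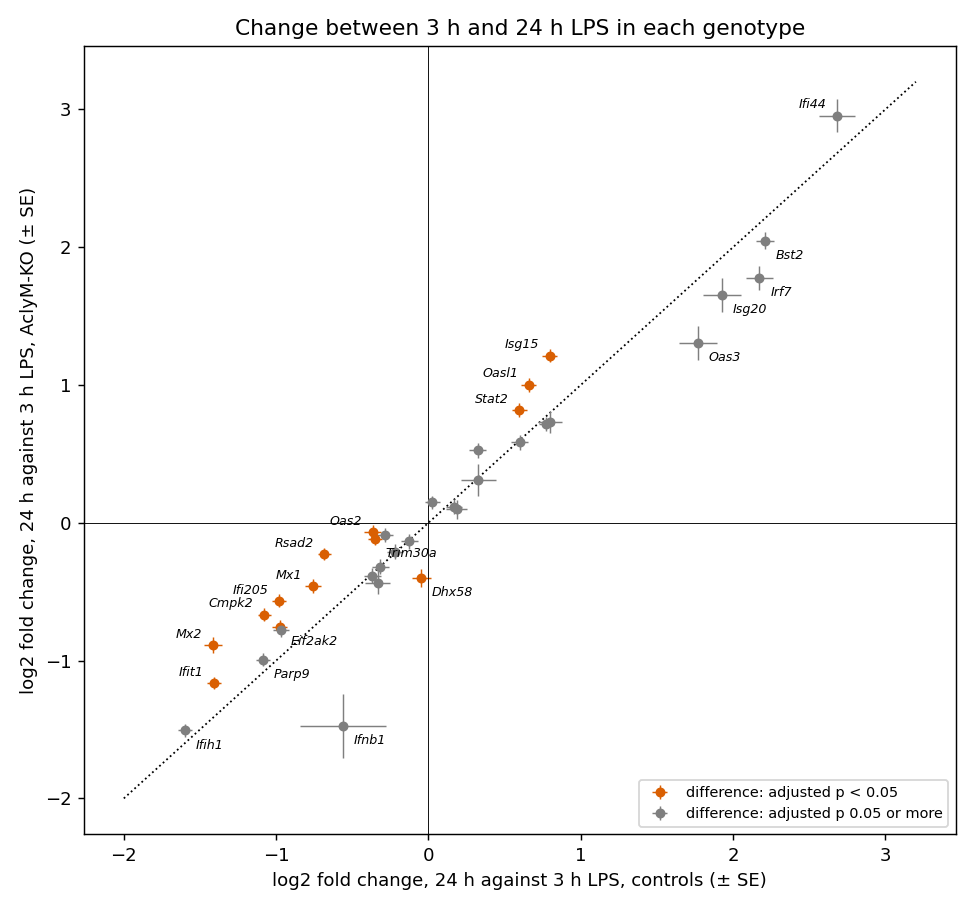
Log2 fold change from 3 h to 24 h LPS in controls (horizontal) and AclyM-KO BMDMs (vertical) for the 36 members, with ± SE bars and a dotted line of equal change. Orange marks members whose genotype effect differed between the times (adjusted p-value under 0.05): 12 lie above the line and Dhx58 lies below it.

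**Figure D4:**
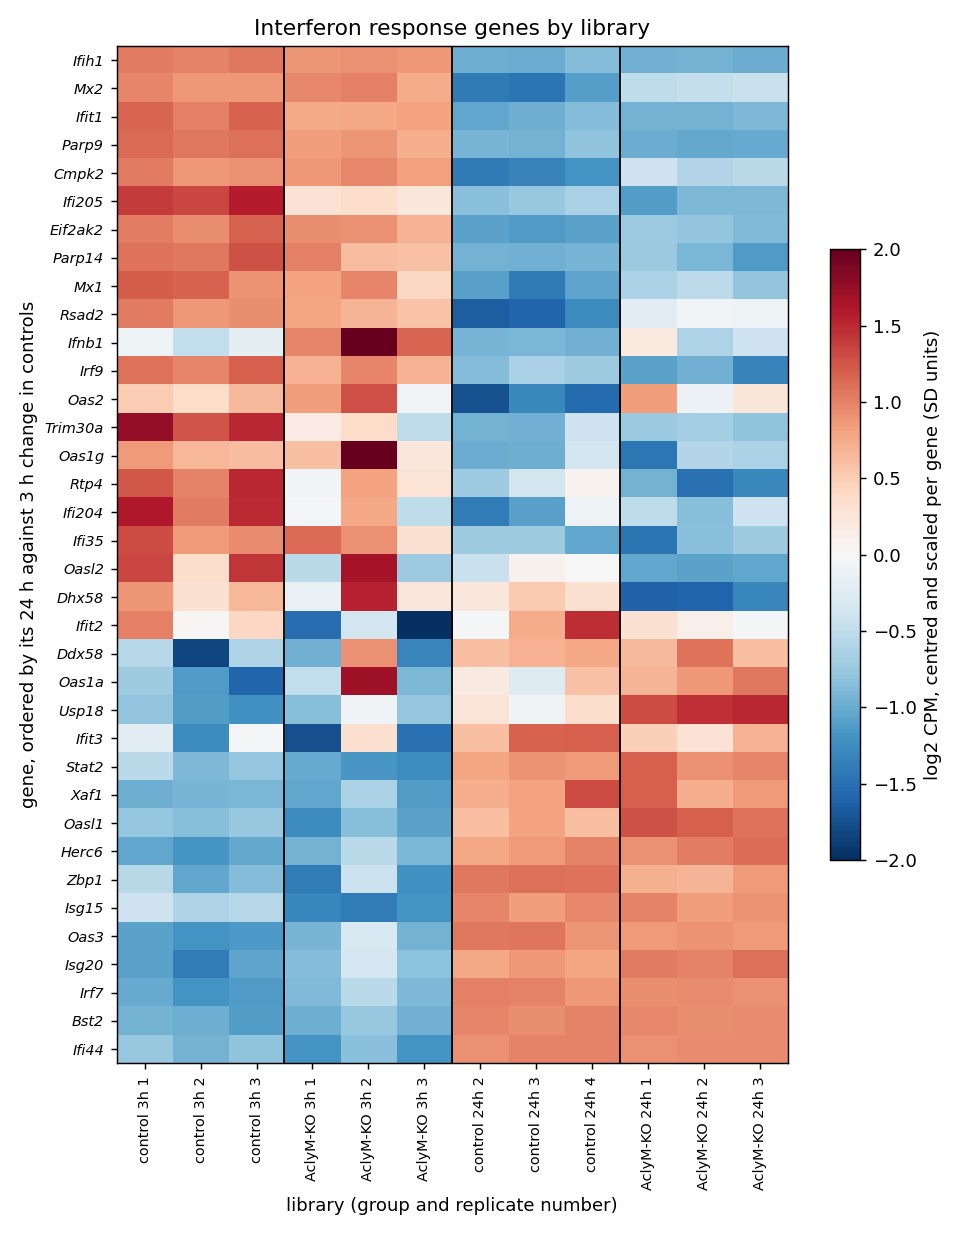
Log2 CPM of the 36 members in the 12 libraries, centred and scaled for each gene to SD units, with genes ordered by their change from 3 h to 24 h in controls. The upper genes are high (red) at 3 h and the lower genes high at 24 h in both genotypes, and AclyM-KO 3 h replicate 2 is redder than the other AclyM-KO 3 h libraries for 29 members.

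Other genes of the pathway were read from lists. None of them passed both thresholds in a genotype comparison. Of 16 genes for sensing LPS or nucleic acids and for inducing interferon, 3 were higher and 2 lower at 3 h on the adjusted p-value alone, and 2 were higher and 2 lower at 24 h. Of all genes, 8.52% were higher and 6.92% lower at 3 h, and 8.31% and 5.59% at 24 h. At 3 h the higher genes of the 16 were Tlr4 (0.27), Irf5 (0.25) and Tmem173, which encodes STING (0.30), and the lower ones were Cd14 (-0.15) and Ly96 (-0.43), which hand LPS to Tlr4. After 24 h of LPS the higher genes were the adaptor Ticam1 (0.62) and Irf5 (0.27), and the lower ones were the kinase Ikbke (-0.28) and Irf8 (-0.30). Irf3 (log2 fold changes 0.01 and 0.11), its kinase Tbk1 (-0.02 and 0.12) and Irf1 (-0.06 and -0.02) did not pass at 3 h or 24 h. Irf3 held 12.7, 11.3 and 11.9 CPM in controls and 12.2, 11.3 and 12.6 CPM in AclyM-KO at 3 h, which overlapped.

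The receptor chains and their kinases were read next. Ifnar2 had a log2 fold change of -0.29 ± 0.05 (adjusted p = 3.58e-04) at 3 h, from 150, 157 and 156 CPM in controls to 133, 115 and 131 CPM in AclyM-KO. Its values at 24 h overlapped (-0.05, adjusted p = 0.627). Ifnar1 did not pass at either time (-0.14, adjusted p = 0.115, and 0.16, adjusted p = 0.0614). Jak1 was lower at 3 h (-0.29 ± 0.05, adjusted p = 1.75e-04). At 24 h the AclyM-KO libraries held 245, 237 and 242 CPM of Jak1, above the controls at 218, 222 and 215 CPM. That log2 fold change of 0.145 missed the threshold (adjusted p = 0.06). Tyk2 was higher at both times (0.31, adjusted p = 3.95e-04, and 0.19, adjusted p = 0.0183).

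The inhibitors of signalling included Socs1, which blocks the receptor kinases and was higher in AclyM-KO at both times. At 3 h the controls held 78.8, 76.2 and 73.1 CPM and the AclyM-KO libraries 96, 124 and 107 CPM. By 24 h the controls held 15.1, 14.8 and 14.1 CPM and the AclyM-KO libraries 18.4, 20.1 and 18.2 CPM. The groups were apart at both times, with log2 fold changes of 0.52 ± 0.07 (adjusted p = 3.78e-06) and 0.37 ± 0.08 (adjusted p = 0.0023). Of the 5 inhibitors 2 were higher at each time and 1 was lower at 24 h: Socs3, a relative of Socs1, was the other higher gene (0.17, adjusted p = 0.0214, and 0.57, adjusted p = 2.99e-09), and Ptpn6, a phosphatase of the receptor complex, was the lower one (-0.24, adjusted p = 7.26e-04). The shares of all genes were 8.52% higher and 6.92% lower at 3 h, and 8.31% and 5.59% at 24 h.

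A further 54 interferon-induced genes outside the 36 were read in the same way: 3 were higher and 13 lower at 3 h, and 12 were higher and 2 lower at 24 h. Among all genes 8.52% were higher and 6.92% lower at 3 h, and 8.31% and 5.59% at 24 h. The median log2 fold change of the 54 was 0.01 at 3 h and 0.09 at 24 h, and at 3 h 30 of the 54 had a positive value, so lower calls outnumbered higher ones without a lower median. The 20 other interferon ligand genes examined were too rare to test. Of the 20, 14 were at 0 in every library, and the highest was Ifng at 0.412 CPM, so Ifnb1 was the interferon transcript that these libraries could compare.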

How the data were processed

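Raw counts per RefSeq transcript were deposited by the authors for 13 libraries. According to the study's methods, strand-specific mRNA libraries were aligned to mm10 with STAR, and tags were summed with HOMER. The submitters' processing notes name STAR 2.5.2b and CASAVA 1.8.2. The strand and isoform settings of the counting are not given in the sources used here. The table has 35745 transcripts, of which 35628 were matched to a symbol. The other 117, with 1.13% of counts, stayed in the library sizes and tests. None of its sample columns (0) was left unread, other than control 24 h replicate 1, which entered only as an alternative.

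Counts were scaled by TMM, filtered with filterByExpr and fitted with the robust quasi-likelihood test of edgeR 4.0.16 (R 4.3.3) over 12 libraries in 4 groups taken from the labels. Benjamini-Hochberg adjustment ran over 19621 transcripts of 11942 genes. DESeq2 1.42.0, which the study used, was an alternative. The other alternatives were RLE scaling, other filters, 1 transcript per gene, other fold thresholds, only the groups compared, all 13 libraries, each library left out, 2 pairs of 3 h libraries left out and the replicate number as a block. The fit was tested on simulated data. Replicates differed by more than counting error (chi-square per degree of freedom 2.74 to 12.69).

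The members and lists were chosen with earlier results of these data known. All 36 members are accounted for. Values in every library are given for Ifnb1, for members past both thresholds in a genotype comparison or with an adjusted p-value under 0.05 in the difference of the effects, and for the member of each role group with the highest mean CPM. Of the pathway lists, Ifnar1, Ifnar2, Irf1, Irf3, Tbk1 and Socs1 are named whatever their values. A further gene of the receptor and signalling list is not reported here, nor are the counts of that list. Usp18, Isg20, Rtp4 and Ifi44 are given as means or folds. Promoters came from RefSeq's table for GRCm38.p6. Intervals on single libraries are exact Poisson intervals and cover counting error only.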

Additional observations from a re-analysis of the deposited data

Results flagged for a closer look

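The genotype effect differed between 3 h and 24 h LPS for 13 members by the direct test. On the log2 scale, as 24 h minus 3 h, the difference was 0.53 for Mx2, 0.46 for Rsad2, 0.42 for Ifi205, 0.42 for Isg15, 0.41 for Cmpk2, 0.34 for Oasl1, 0.30 for Mx1, 0.30 for Oas2, 0.25 for Ifit1, 0.23 for Trim30a (0.235), 0.22 for Stat2, 0.22 for Eif2ak2 and -0.35 for Dhx58.

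The shallow control library, 24 h replicate 1, was not in the main fit and entered only as an alternative. As CPM of its 34467 counts, without TMM scaling, 5 members lay above the other 24 h controls by more than counting error. Other genes were not compared in this way, so the count has no share of all genes beside it. Replicates of a group also differed by more than counting error (chi-square per degree of freedom 2.74 to 12.69). Rsad2 was at 10502.8 (exact Poisson 95% interval 9448.6 to 11642.4), against 8281.9 to 8852.5 in the other 24 h controls and 11112.3 to 11459.9 in the 3 h controls. Cmpk2 was at 3162.4 (2596.7 to 3814.9), against 2235.5 to 2397.6 at 24 h and 3957.8 to 4142.4 at 3 h. Ifit1 was at 2234 (1763.1 to 2792.1), against 1228.7 to 1325.8 and 2701.4 to 2850.9. Ifih1 was at 580 (354 to 896), against 305 to 326 and 775 to 788. Eif2ak2 was at 319 (159 to 571), against 155 to 158 and 248 to 263.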

How the results depend on the processing

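None of 757 member values under alternatives changed direction, 657 kept their side of the threshold and 100 lost a call; of 35 values that passed, 18 kept it everywhere. Counts of members moved as follows. Without a fold threshold they were 3 higher and 10 lower at 3 h, 7 and 2 at 24 h, 15 and 18 over time in controls and 15 and 18 in AclyM-KO. Of all 11942 genes, 4647 rose and 4302 fell over time in controls without a fold threshold, and 4702 rose and 4335 fell in AclyM-KO. With a fold threshold of 1 the members were 5 and 5 over time in controls, and 3 lower in AclyM-KO, and all genes were not counted at that threshold. On the adjusted p-value alone, lower members at 3 h were 4 with all 13 libraries and 6 in a fit of 2 groups, and higher members 5 without the low-count filter. Over all genes these counts were 710 of 11942, 542 of 11296 and 1075 of 18150. Lower members at 24 h were 1 with all 13 libraries, 4 in a fit of 2 groups and 1 with the replicate block. For all genes they were 581 of 11942, 991 of 11498 and 422 of 11942. Lower members in the difference were 2 with DESeq2, 2 with at least 10 counts in every library, 2 with 1 transcript per gene, 5 without the filter and 3 without AclyM-KO 3 h replicate 2 and control 3 h replicate 2. In the same order, lower genes in all were 541 of 18150, 590 of 10330, 594 of 11942, 756 of 18150 and 573 of 12035. The DESeq2 total holds every gene with an estimate, including any left without an adjusted p-value, which could not be called. Without AclyM-KO 3 h replicate 2 and control 3 h replicate 2 the members' medians were -0.132 at 3 h and -0.049 over time in AclyM-KO. Without AclyM-KO 3 h replicate 3 and control 3 h replicate 1, 5 members were higher and 3 lower at 3 h with a median of -0.012, and 6 were higher and 2 lower in the difference with a median of 0.041. Leaving out each library gave 2 to 7 members higher and 4 to 15 lower at 3 h, 1 to 3 lower at 24 h, and 7 to 15 higher and 1 to 3 lower in the difference. Of all genes it gave 726 to 1138 higher and 487 to 944 lower at 3 h, and 434 to 964 lower at 24 h. In the difference it gave 346 to 804 higher and 388 to 848 lower. The cause of these moves was not tested. Same-numbered libraries share only a number: their deviations from the group means correlated at -0.031 to 0.059, and not every library correlated best with its own number. The replicate block gave 2 higher and 10 lower members at 3 h, 7 higher at 24 h and 10 higher in the difference. Of all 11942 genes it gave 1028 higher and 840 lower at 3 h, 613 higher at 24 h and 425 higher in the difference. The main fit gave 1018, 826, 992 and 583 of all genes in the same order. The block ended the calls of Isg20 at 3 h (adjusted p = 0.0821), Rtp4 at 24 h (0.197) and the differences of Oas2 (0.0661), Stat2 (0.0838) and Eif2ak2 (0.0845), and no other call. With 3 libraries a group and a single shallow library set aside, small changes near the threshold were not stable.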

Other observations

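In the shallow control library 10 members lay below the other 24 h controls by more than counting error: Irf7, Stat2, Ddx58, Oas3, Oasl1, Bst2, Isg15, Usp18, Ifi44 and Xaf1. This count too has no share of all genes beside it, and replicates of a group differ by more than counting error. Irf7 was at 203 CPM without TMM scaling (exact Poisson 95% interval 81.7 to 418), against 1076.8 to 1195.7 in the other 24 h controls and 200 to 226 in the 3 h controls. Ifi44 was at 58 CPM (7.03 to 210), against 375 to 403 and 45.8 to 54.7. Isg15 was at 174 CPM (63.9 to 379), against 520 to 550 and 249 to 267. Usp18, with no count (0 to 107 CPM), lay below the 24 h controls (240 to 259) and also below the 3 h controls (159 to 174), and Ddx58 at 87 CPM (17.9 to 254) lay below both (362 to 365 and 256 to 275). No Ifnb1 count was seen, which allows up to 107 CPM. The interval reached or held the range of the 3 h controls for Irf7, Stat2, Oas3, Oasl1, Bst2, Ifi44, Isg15, Xaf1, Rsad2, Ifit1, Ifih1 and Eif2ak2, and lay between the 3 h and the 24 h controls for Cmpk2. The label of the library was not tested.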
